A study of Mus musculus with 69 samples.

Results

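The insulin, IGF and EGF receptor pathway was followed here through 10 genes in dissected mouse kidney tubules. They were the receptor genes Insr, Igf1r, Egfr and Erbb3, the adaptor genes Irs1, Irs2 and Grb10, and the IGF binding protein genes Igfbp4, Igfbp5 and Igfbp7. The genes were matched by symbol, and all 10 were found among the 55487 genes of the 24 h tables and the 53700 genes of the 72 h tables. RNA sequencing libraries had been made from proximal tubule S1 segments (PT-S1), the start of the tubule that reabsorbs most of the filtrate, or from the cortical collecting duct (CCD), where final salt and water balance is set. All mice were wild-type (WT) male C57BL/6 from Taconic, 7 weeks old at the operation, which was either sham surgery or unilateral nephrectomy (UNx), the excision of a kidney. PT-S1 at 24 h was sampled in 3 sham animals (8 libraries) and 4 UNx animals (9 libraries), and at 72 h in 5 animals of each group (12 libraries each). CCD at 24 h was sampled in 4 sham animals (8 libraries) and 3 UNx animals (7 libraries), and at 72 h in 4 animals of each group (7 sham and 6 UNx libraries). The number after Sham or UNx in the sample title was read as the animal, and libraries of an animal were averaged. The animal was the replicate, and 32 animals entered, 16 sham and 16 UNx, if none is shared between segments, which the labels do not state.

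Insulin and the insulin-like growth factors bind the receptor tyrosine kinases encoded by Insr and Igf1r. The activated receptors phosphorylate the docking proteins IRS1 and IRS2, which recruit PI3 kinase and through it AKT, while GRB10 binds the receptors and dampens their signal. IGF binding proteins hold IGFs outside the cell and alter their access to the receptor. EGF family ligands bind EGFR and ERBB3, and ERBB3, whose own kinase is weak, signals in pairs with other ERBB receptors. In the kidney, insulin acts on sodium and glucose handling, EGF receptor signalling takes part in tubular growth and repair, and the kidney that remains after nephrectomy enlarges.

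Promoter sequence was read from RefSeq windows on the build GRCm38.p6, which run from 250 bases before to 50 bases after an annotated start. Of the 10 genes, 8 matched, with 9 windows because Grb10 has 2. Insr and Erbb3 had no window, so no motif was searched for in their promoters. A GC box was searched as GGGCGG on both strands, a TATA box as TATAAA and a forkhead (FOXO) motif as GTAAACA, also on both strands. FOXO factors are turned off by AKT, and Insr and Irs2 are textbook FOXO targets, which is why the last motif was searched. GC boxes were in 6 of the 8 genes: 5 in 1 Grb10 window, 4 in Igfbp7, 2 each in Irs1 and Igf1r, and 1 each in Irs2 and Egfr. Of all 32851 windows, 35.7% held a GC box. Igfbp4 held the only TATAAA, which 13.6% of all windows had, and no window of these genes held GTAAACA, which 3.65% of all windows had. GC content was 80.0% and 52.33% in the Grb10 windows, 76.0% for Igf1r, 72.0% for Irs2 and 62.33% for Egfr, against a median of 52.67% over all windows. The 150 bases before the start are shown for a growth factor receptor of each family and for the adaptor with the widest range of values, each 5′ to 3′ on the gene's strand with GC boxes in capitals (CCGCCC is the box on the opposite strand).
Igf1r, chr7:67952107-67952256, plus strand: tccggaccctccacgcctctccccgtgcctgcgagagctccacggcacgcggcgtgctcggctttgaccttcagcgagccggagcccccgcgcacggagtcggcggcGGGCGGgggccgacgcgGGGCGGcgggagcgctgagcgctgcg
Irs2, chr8:11008930-11009079, minus strand: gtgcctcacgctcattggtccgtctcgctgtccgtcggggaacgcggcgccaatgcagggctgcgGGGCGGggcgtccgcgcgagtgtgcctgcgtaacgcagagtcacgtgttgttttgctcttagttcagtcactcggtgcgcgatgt
Egfr, chr11:16752053-16752202, plus strand: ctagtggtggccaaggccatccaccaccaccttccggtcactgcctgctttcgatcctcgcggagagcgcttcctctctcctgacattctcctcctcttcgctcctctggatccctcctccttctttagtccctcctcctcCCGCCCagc
The Igf1r stretch held 2 boxes close to the start, and the Irs2 and Egfr stretches held 1 each. These matches describe the letters of the windows and not binding.

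The deposited values are TPM, a transcript abundance per length that sums to 1e+06 in each library, so they hold no sequencing depth. Libraries had 9247 to 14875 genes at 1 TPM or more, and 1.2% to 19.6% of their TPM came from mitochondrial genes. The median correlation of a library with the others of its table lay between 0.824 and 0.973. It was under 0.92 in 5 libraries: 1 each of sham animals 1 and 3 in PT-S1 at 24 h, 1 each of UNx animals 1 and 2 in PT-S1 at 72 h, and 1 of sham animal 1 in CCD at 72 h. Markers of the proximal tubule S1 and S2 segments summed to 6132 to 14679 TPM per animal in PT-S1, and markers of principal cells, the main cell of the collecting duct, to 15222 to 58909 TPM in CCD, as labelled. Endothelial markers summed to between 60.6 and 399 TPM over all animals, and no marker of any list was at 0 throughout a table. In such bulk samples, fewer cells of a type and less RNA per cell cannot be told apart.

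By the ratio of mean TPM, the segments differed most in Igfbp4 and Irs1, though Irs1 was near 0.1 TPM in PT-S1. On the log2(TPM + 1) scale PT-S1 minus CCD in sham animals at 72 h was -2.69 for Irs1 and -3.17 for Irs2. These levels come from tables treated as normalized separately and are described without a test. In sham animals Igfbp4 averaged 1233 ± 153 TPM (SD, n = 3) in PT-S1 and 6.34 ± 3.5 TPM (SD, n = 4) in CCD at 24 h, a ratio of 195, and the ratio at 72 h was 178. Irs1 went the other way, with 0.121 ± 0.0690 TPM (SD, n = 3) in PT-S1 and 6.47 ± 2.21 TPM (SD, n = 4) in CCD at 24 h, a ratio of CCD to PT-S1 of 53.7, and of 93.2 at 72 h. The ratio of CCD to PT-S1 in sham animals was 7.06 at 24 h and 12.7 at 72 h for Irs2, 3.15 and 3.91 for Grb10, and 2.39 and 3.14 for Insr. For Igfbp4, Irs1, Irs2, Grb10 and Insr the sham animals of the segments did not overlap at either time. Igfbp7 was 1.88 times as high in PT-S1 as in CCD at 24 h without overlap, and 1.92 times as high at 72 h with overlap. Igf1r, Igfbp5, Egfr and Erbb3 overlapped between the segments at both times, so their order is within the spread of the animals. The collecting duct thus held more of the insulin receptor message and of its adaptors, and the proximal tubule more Igfbp4 and, at 24 h, Igfbp7.

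**Figure D1:**
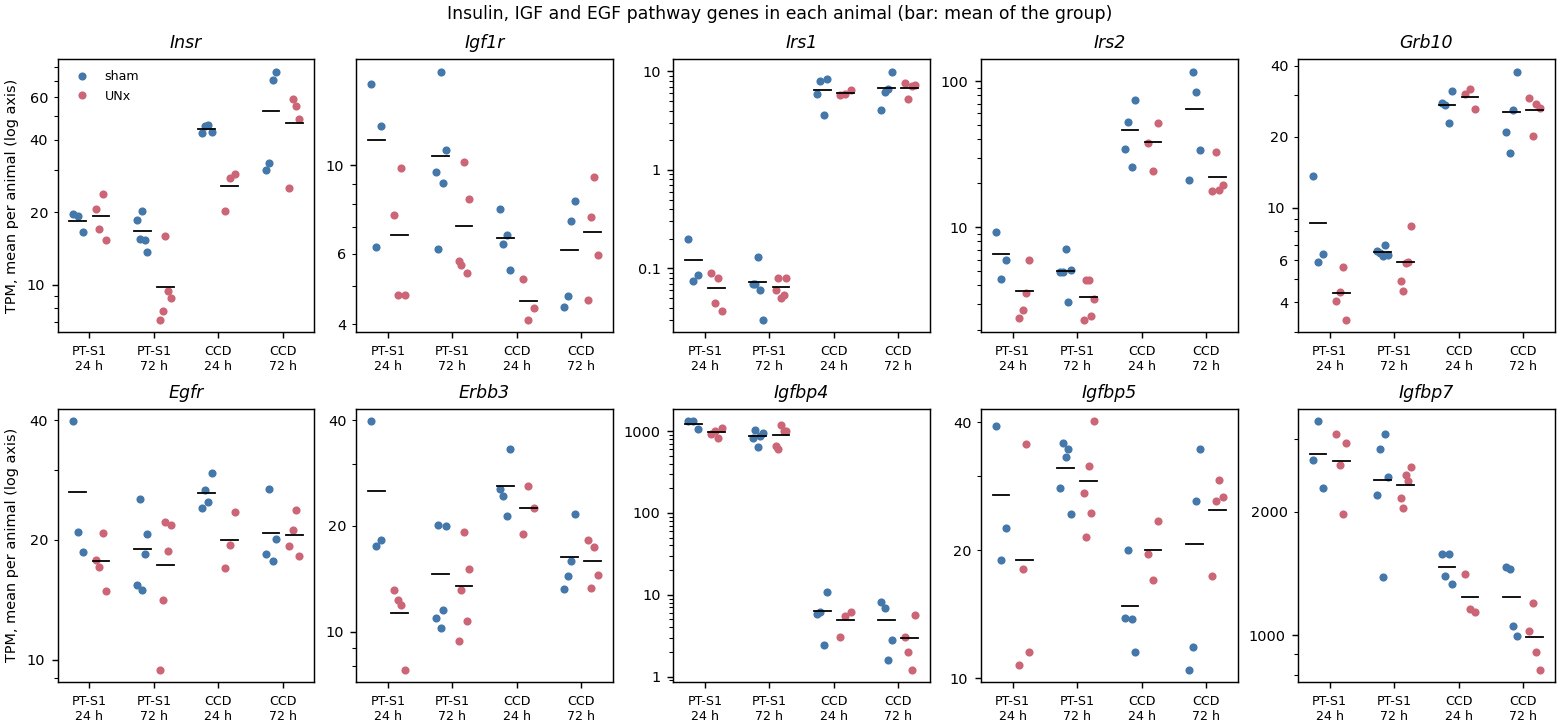
TPM of each gene in each animal (log axis), by segment and time, in sham (blue) and UNx (red) animals, with a bar at the group's mean. Igfbp4 lies at 604 to 1325 TPM in PT-S1 and under 11 TPM in CCD, Irs1 lies at 0.2 TPM or less in PT-S1, and the Insr animals of CCD at 24 h form separate groups.

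UNx was compared with sham within each table by limma on log2(TPM + 1), so a change is on that scale and understates the change of genes near or below 1 TPM. Over all genes, 0% passed an adjusted p of 0.05 in PT-S1 at 24 h, 0% in PT-S1 at 72 h, 0.987% in CCD at 24 h and 0.595% in CCD at 72 h. At an unadjusted limma p under 0.05 the shares were 17.8%, 20.5%, 15.5% and 7.49%, and the animals of the groups did not overlap for 21.3%, 5.58%, 15% and 4.77% of genes. Of the 10 pathway genes, 1 passed the adjusted threshold, Insr in CCD at 24 h. Counts at an unadjusted p were 3 of 9 tested in PT-S1 at 24 h, 2 of 9 in PT-S1 at 72 h, 4 of 10 in CCD at 24 h and 1 of 10 in CCD at 72 h, and all of these had the lower value in UNx. Over all genes at an unadjusted limma p under 0.05, 85.4%, 93.5%, 64.2% and 37.7% were lower in UNx in these tables, so in PT-S1 the direction of the pathway genes was that of most genes. Counts without overlap were 2 of 9, 0 of 9, 3 of 10 and 0 of 10. Irs1 was under the minimum of 1 TPM in both PT-S1 tables and was not tested there.

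The median change over all genes tested was -0.19 and -0.29 in the PT-S1 tables at 24 h and 72 h, against -0.038 and 0.010 in CCD, and quantile or median-ratio scaling moved it to between -0.049 and 0.019 in the 4 tables. The change relative to this median is therefore given for PT-S1. The median over the pathway genes was -0.46 in PT-S1 at 24 h, -0.36 in PT-S1 at 72 h, -0.24 in CCD at 24 h and 0.056 in CCD at 72 h. The change was below 0 for 8 of 9 genes in PT-S1 at 24 h (7 under median-ratio scaling, where Igfbp7 was at 0.23) and for 9 of 9 at 72 h, where under median-ratio scaling Grb10, Igfbp4, Igfbp5 and Igfbp7 were above 0 and under quantile normalization Grb10 and Igfbp5. Of all genes tested, 70.9% at 24 h and 83.0% at 72 h were below 0 in PT-S1. Without the libraries of low correlation, a setting added for these counts after the data were seen, 5 of 9 genes in PT-S1 at 24 h had an unadjusted limma p under 0.05 (Igfbp4, Erbb3, Egfr, Grb10 and Irs2, against 24.7% of all genes) and 4 did not overlap (Igfbp4, Erbb3, Egfr and Grb10, against 22.9%). At 72 h in PT-S1 that setting left 2 genes at an unadjusted limma p under 0.05, Insr lower and Igfbp4 higher in UNx (17.7% of all genes), and 6 of 9 genes above 0. 

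**Figure D2:**
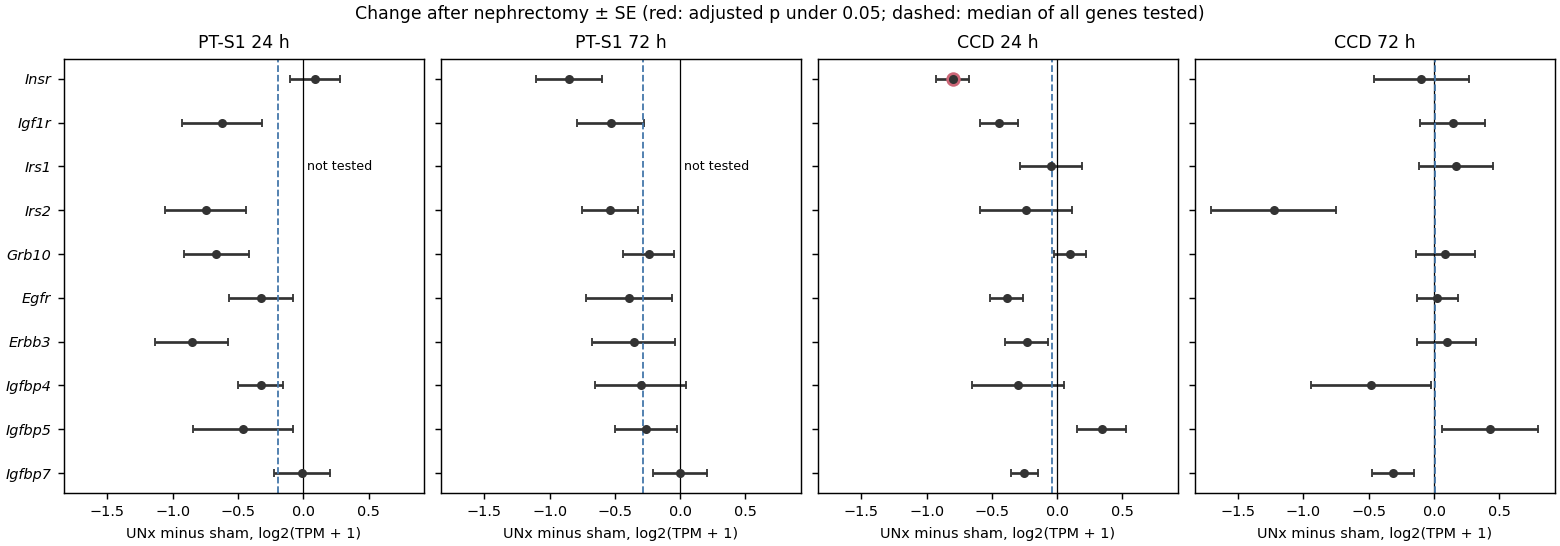
UNx minus sham on the log2(TPM + 1) scale with its standard error, for each gene and table; the dashed line is the median of all genes tested. Insr in CCD at 24 h (red, -0.80) is the only value past the adjusted threshold.

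Insr, the insulin receptor, fell in the collecting duct 24 h after UNx. The sham animals 1 to 4 had 42.6, 45.4, 46.1 and 42.9 TPM, and the UNx animals 1 to 3 had 20.1, 27.8 and 28.9 TPM. All UNx animals were below all sham animals, and so were the single libraries, of which the UNx ones ran from 14.9 to 36.7 TPM and the sham ones from 37.5 to 53.3 TPM. The mean went from 44.2 ± 1.77 TPM (SD, n = 4) to 25.6 ± 4.78 TPM (SD, n = 3), a ratio of 0.579. The change was -0.80 (SE 0.129; limma, adjusted p = 0.0321). Its adjusted p was 0.0626 to 0.0994 when any animal other than UNx animal 3 was left out (0.0420 without that animal), and 0.0895 with no filter on low genes, with the change between -0.63 and -0.89 throughout.

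In the same table some cell type markers and library measures also differed between sham and UNx. Apart from the number of genes, all ranges given here overlapped. Genes at 1 TPM or more averaged 13671 to 13782 per sham animal and 13256 to 13546 per UNx animal, without overlap, and the mitochondrial share averaged 2.21% to 2.63% in sham and 1.62% to 2.22% in UNx animals. The 5 principal cell markers summed to 15713 to 42730 TPM in sham and 39196 to 58909 TPM in UNx animals, with 4 of 5 higher, 3 at an unadjusted p under 0.05 and 0 at the adjusted threshold. The 5 markers of intercalated cells, the acid-base cells of the duct, summed to 2705 to 3157 TPM in sham and 3020.1 to 3586 TPM in UNx animals, with 5 of 5 higher and 1 at an unadjusted p under 0.05. The 4 markers of the thick ascending limb, which makes EGF, summed to 110 to 3497 TPM in sham and 103 to 222 TPM in UNx animals. Of these 4, 1 was at an unadjusted limma p under 0.05. The 4 markers of the proximal tubule S3 segment summed to 35.5 to 57.8 TPM in sham and 20.4 to 37.9 TPM in UNx animals, with 3 of 4 at an unadjusted p under 0.05. In each of the other lists 0 markers were at an unadjusted limma p under 0.05, among them 0 of 9 endothelial markers tested. No marker of these lists was at 0 throughout. Their part in the Insr result was not tested.

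At 72 h the collecting duct animals were spread widely in Insr, with 29.8, 32.1, 70.8 and 76.7 TPM in sham and 25.3, 58.7, 54.9 and 48.7 TPM in UNx animals 1 to 4. Sham animals 1 and 2 and UNx animal 1 were low and the other sham animals high, so the groups overlapped. The change was -0.096 (SE 0.361; limma, adjusted p = 0.980). Libraries of the same animal were close in Insr: the 3 of sham animal 4 had 80.0, 79.9 and 70.2 TPM, while the 2 of sham animal 1 had 32.9 and 26.7 TPM. Among the animals with 2 or 3 libraries the spread of Insr at 72 h thus lay between animals. The library of sham animal 1 with 26.7 TPM was the one of low correlation. In some other genes the libraries of sham animal 1 lay far apart, as in Irs1 (7.39 and 0.79 TPM) and Erbb3 (23.1 and 3.36 TPM). Sham animals 2 and 3 and UNx animals 2 and 3 gave 1 library each, so for them library and animal cannot be told apart.

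In PT-S1 Insr at 24 h was 19.6, 19.3 and 16.5 TPM in sham animals and 20.6, 17.0, 23.9 and 15.4 TPM in UNx animals. The UNx range enclosed the sham range, and the change was 0.090 (SE 0.191, relative 0.28; limma, adjusted p = 0.800). At 72 h the sham animals 1 to 5 had 18.5, 15.5, 20.3, 15.3 and 13.7 TPM, and the UNx animals 1 to 5 had 7.16, 7.79, 15.9, 9.47 and 8.83 TPM. Of the UNx animals, 4 were below the lowest sham animal and animal 3 was inside the sham range. The change was -0.85 (SE 0.254, relative -0.56), with a limma adjusted p of 0.237 and an unadjusted one of 0.00538. UNx animals 1 and 2 each held a library of low correlation, with 1.51 and 3.75 TPM beside 12.8 and 11.8 TPM in the other library of the same animal. Without those libraries the change was -0.46 (SE 0.165, relative -0.44; limma, adjusted p = 0.209). UNx animals 4 and 5, which held none, remained below the lowest sham animal, and so did the remaining libraries of UNx animals 1 and 2. With animals weighted by their fit (arrayWeights), the change was -0.70 (relative -0.64) with a limma adjusted p of 0.0287, but that setting also took 11.3% of all genes past the threshold, from 0%. Endothelial markers summed to 131 to 335 TPM in sham and 65.5 to 279 TPM in UNx animals of PT-S1 at 72 h, with 0 of 9 tested higher, where 83.0% of all genes were below 0. Intercalated cell markers summed to 3.49 to 20.8 TPM in sham and 1.86 to 2.78 TPM in UNx animals, without overlap (0 of 2 tested higher, 1 at an unadjusted p under 0.05), and principal cell markers to 27.9 to 42.4 TPM and 40.4 to 68.1 TPM (1 of 1 tested higher). The part of these markers in the Insr values was not tested.

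**Figure D3:**
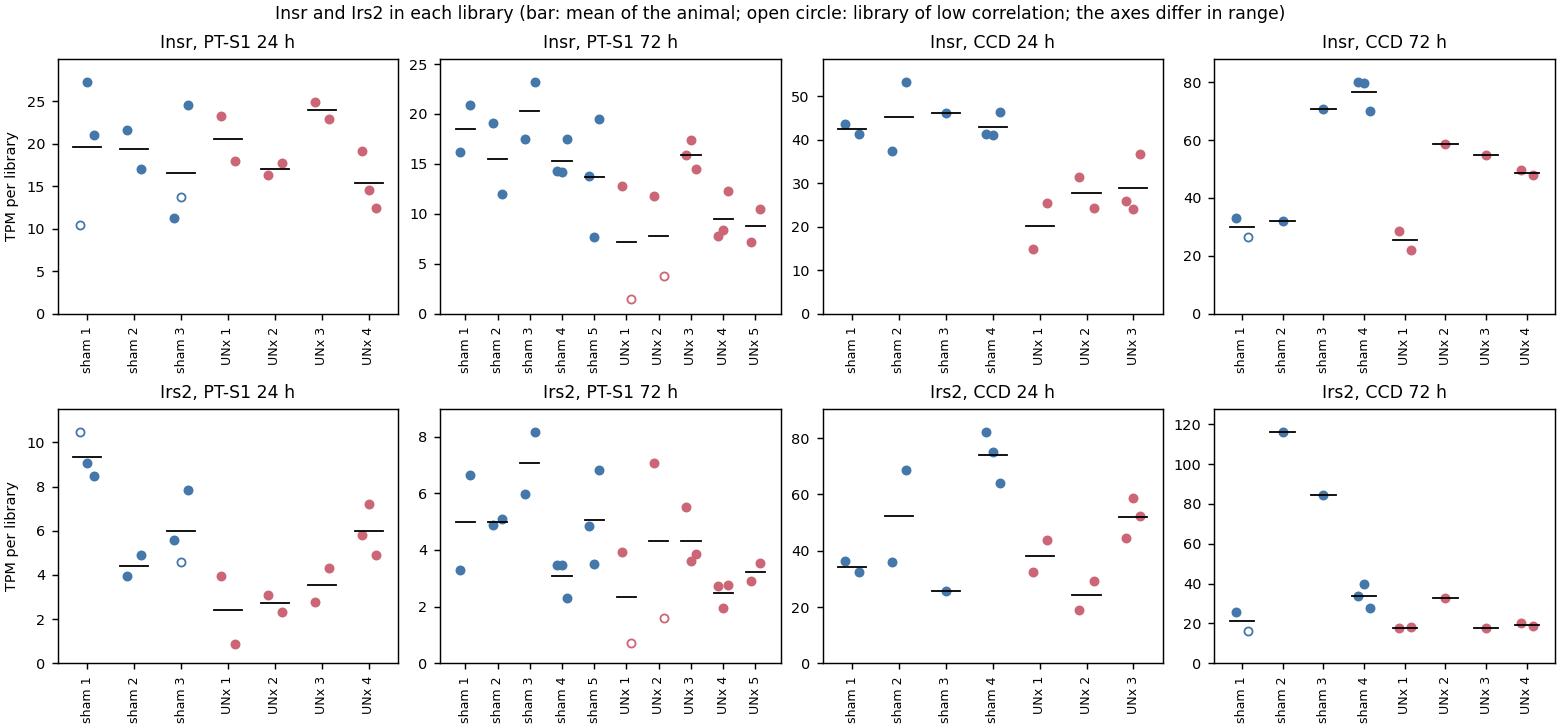
TPM of Insr (top) and Irs2 (bottom) in each library, by animal, with a bar at the animal's mean and open circles for libraries of low correlation; the axes differ between panels. Insr separates sham from UNx libraries in CCD at 24 h, and Irs2 in CCD at 72 h is high in sham animals 2 and 3, each with 1 library.

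Igf1r, the receptor of IGF1 and IGF2, was at 4.10 to 17.2 TPM over all animals. In CCD at 24 h the sham animals had 7.76, 6.35, 6.71 and 5.48 TPM and the UNx animals 5.19, 4.10 and 4.40 TPM. The groups did not overlap, the highest UNx animal being just under the lowest sham one, and the change was -0.44 (SE 0.145; limma, adjusted p = 0.188). By 72 h in CCD the ranges coincided, 4.42 to 8.12 TPM in sham and 4.59 to 9.33 TPM in UNx, with a change of 0.14 (SE 0.249; limma, adjusted p = 0.959). In PT-S1 at 24 h the sham animals had 16.0, 6.24 and 12.6 TPM and the UNx animals 7.53, 4.73, 9.84 and 4.72 TPM. Sham animal 1 held a library of low correlation and was the highest. The PT-S1 changes were -0.62 (SE 0.307, relative -0.43; limma, adjusted p = 0.303) at 24 h and -0.53 (SE 0.259, relative -0.25; limma, adjusted p = 0.252) at 72 h, with overlap at both times. Without the libraries of low correlation they were -0.39 (relative -0.18) and -0.33 (relative -0.31).

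Egfr, the EGF receptor, was at similar levels in both segments. In CCD at 24 h it was 24.1, 26.7, 24.9 and 29.5 TPM in sham and 17.0, 19.4 and 23.5 TPM in UNx animals. These groups did not overlap, though UNx animal 3 was close to the lowest sham animal, and the change was -0.39 (SE 0.124; limma, adjusted p = 0.182). For CCD at 72 h the Egfr change was 0.026 (SE 0.160; limma, adjusted p = 0.991), with 17.7 to 26.8 TPM in sham and 18.2 to 23.8 TPM in UNx. In PT-S1 at 24 h sham animal 1 stood at 39.8 TPM, the other sham animals at 21.0 and 18.7 TPM, and the UNx animals at 14.9 to 20.9 TPM. The PT-S1 changes were -0.32 (SE 0.245, relative -0.13; limma, adjusted p = 0.462) at 24 h and -0.39 (SE 0.328, relative -0.10; limma, adjusted p = 0.436) at 72 h. The 72 h value turned to 0.17 without the libraries of low correlation and to 0.21 with array weights.

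Erbb3, the kinase-poor ERBB receptor, had the lowest UNx to sham ratio of the 9 genes tested in PT-S1 at 24 h. Its sham animals 1 to 3 had 39.8, 17.6 and 18.2 TPM and its UNx animals 1 to 4 had 13.2, 12.3, 11.9 and 7.80 TPM. All UNx animals were below all sham animals, and sham animal 1 stood apart because its library of low correlation held 76.1 TPM beside 20.9 and 22.3 TPM. The change was -0.86 (SE 0.280, relative -0.66), with a limma adjusted p of 0.254. Without the libraries of low correlation the means were 21.4 ± 3.74 TPM in sham (SD, n = 3) and 11.3 ± 2.38 TPM in UNx (SD, n = 4), and the change was -0.90 (relative -0.69; limma, adjusted p = 0.0849). In PT-S1 at 72 h the Erbb3 groups overlapped, with 10.2 to 20.2 TPM in sham and 9.43 to 19.2 TPM in UNx and a change of -0.36 (SE 0.316, relative -0.069; limma, adjusted p = 0.460), which turned to 0.26 without the libraries of low correlation and to 0.14 with array weights. In CCD the changes were -0.23 (SE 0.165; limma, adjusted p = 0.547) at 24 h and 0.098 (SE 0.226; limma, adjusted p = 0.966) at 72 h.

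Irs2, the docking protein whose transcript responds fast to nutrients and hormones, varied widely between animals of a group. In CCD at 72 h the sham animals 1 to 4 had 21.1, 116, 84.6 and 33.8 TPM and the UNx animals 1 to 4 had 17.8, 32.8, 18 and 19.5 TPM. Sham animals 2 and 3 were above all others, and UNx animal 2 lay within the sham range. The mean went from 63.9 ± 44.4 TPM to 22.0 ± 7.24 TPM (SD, n = 4 each), a change of -1.23 (SE 0.478) with a limma adjusted p of 0.574 and an unadjusted one of 0.0282. In CCD at 24 h the values were 34.3, 52.3, 25.8 and 73.8 TPM in sham and 38.0, 24.2 and 52.0 TPM in UNx animals, which overlapped, and the change was -0.24 (SE 0.352; limma, adjusted p = 0.803). In PT-S1 Irs2 was 9.35, 4.42 and 6.01 TPM in sham and 2.42, 2.71, 3.55 and 5.98 TPM in UNx animals at 24 h, where UNx animal 4 alone reached the sham range. The PT-S1 changes were -0.75 (SE 0.310, relative -0.56; limma, adjusted p = 0.268) at 24 h and -0.54 (SE 0.214, relative -0.25; limma, adjusted p = 0.237) at 72 h. The 72 h change was -0.22 (relative -0.20) without the libraries of low correlation, where its unadjusted limma p went from 0.0268 to 0.348.

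Irs1, the other main docking protein, was at 3.58 to 9.98 TPM in CCD animals and at 0.03 to 0.2 TPM in PT-S1 animals. Its CCD changes were -0.047 (SE 0.236; limma, adjusted p = 0.949) at 24 h and 0.17 (SE 0.284; limma, adjusted p = 0.958) at 72 h. Grb10, the inhibitory adaptor, was 13.6, 5.92 and 6.36 TPM in sham and 4.05, 4.42, 5.62 and 3.36 TPM in UNx animals of PT-S1 at 24 h. The groups did not overlap, with sham animal 1 far above the rest, and the change was -0.67 (SE 0.248, relative -0.47; limma, adjusted p = 0.254). Without the libraries of low correlation it was -0.55 (relative -0.34; limma, adjusted p = 0.129). The other Grb10 changes were -0.24 (SE 0.196, relative 0.048; limma, adjusted p = 0.429) in PT-S1 at 72 h, which was 0.12 without the libraries of low correlation, 0.099 (SE 0.121; limma, adjusted p = 0.748) in CCD at 24 h and 0.087 (SE 0.225; limma, adjusted p = 0.971) in CCD at 72 h. In the CCD tables Grb10 ranged from 17.1 to 37.7 TPM.

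Among the binding proteins, Igfbp4, which inhibits IGF action, was 1325, 1319 and 1056 TPM in sham and 923, 1006, 824 and 1099.7 TPM in UNx animals of PT-S1 at 24 h. Only UNx animal 4 exceeded the lowest sham animal, and the change was -0.33 (SE 0.173, relative -0.13; limma, adjusted p = 0.322). Without the libraries of low correlation the groups did not overlap and the change was -0.52 (relative -0.30; limma, adjusted p = 0.101). At 72 h in PT-S1 the sham animals had 812, 1041, 639, 870.2 and 958 TPM and the UNx animals 649, 604, 1189, 1012 and 1015 TPM. The UNx animals 1 and 2, with a library of low correlation each, were low and the other UNx animals near or above the highest sham animal. The change was -0.30 (SE 0.349, relative -0.014; limma, adjusted p = 0.571), and 0.37 (relative 0.39; limma, adjusted p = 0.209) without those libraries. In CCD Igfbp4 was 1.22 to 10.9 TPM, with changes of -0.30 (SE 0.353; limma, adjusted p = 0.732) at 24 h and -0.48 (SE 0.458; limma, adjusted p = 0.901) at 72 h.

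Igfbp5, which can both inhibit and enhance IGF action, was 13.9, 20.1, 13.8 and 11.6 TPM in sham and 19.6, 17.1 and 23.5 TPM in UNx animals of CCD at 24 h. Sham animal 2 lay inside the UNx range, and the change was 0.34 (SE 0.190; limma, adjusted p = 0.437). At 72 h in CCD the sham animals had 10.5, 11.9, 26.1 and 34.6 TPM, low in animals 1 and 2 as Insr was, and the change was 0.43 (SE 0.368; limma, adjusted p = 0.894). In PT-S1 its changes were -0.46 (SE 0.383, relative -0.27; limma, adjusted p = 0.500) at 24 h and -0.26 (SE 0.235, relative 0.025; limma, adjusted p = 0.466) at 72 h, the latter 0.17 without the libraries of low correlation. Igfbp7, a secreted protein that binds IGFs weakly, was the most abundant of the 10 genes in each table, with 1389 to 3322 TPM in PT-S1 and 825 to 1574 TPM in CCD. Its changes were -0.0076 (SE 0.213, relative 0.18; limma, adjusted p = 0.987) and -0.00051 (SE 0.209, relative 0.29; limma, adjusted p = 0.999) in PT-S1 at 24 h and 72 h. In CCD it was 1574, 1392, 1574 and 1329 TPM in sham and 1412, 1161 and 1138 TPM in UNx animals at 24 h, which overlapped, with a change of -0.25 (SE 0.104; limma, adjusted p = 0.289). At 72 h in CCD the change was -0.31 (SE 0.164; limma, adjusted p = 0.754).

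Whether an effect of UNx differed between segments or times was tested as the difference of both effects, in one limma fit over both tables. The fit took the animals of PT-S1 and CCD as separate, which the labels do not state. If animals are shared, the standard errors and p-values of PT-S1 minus CCD leave that out of account. The adjusted threshold was passed by 0 pathway genes in each of the 4 contrasts. Over all genes it was passed by 0.137% for PT-S1 minus CCD at 24 h, 0% for PT-S1 minus CCD at 72 h, 0% for 72 h minus 24 h in PT-S1 and 0% for 72 h minus 24 h in CCD. At an unadjusted limma p under 0.05 the pathway counts were 2 (Insr and Grb10), 0, 1 (Insr) and 0, against 15.4%, 9.33%, 3.33% and 4.96% of all genes. The difference for Insr between PT-S1 and CCD at 24 h was 0.89 (SE 0.228; limma, adjusted p = 0.140), from 0.090 in PT-S1 and -0.80 in CCD. It passed under quantile normalization (1.06; limma, adjusted p = 0.0375), median-ratio scaling (1.06; limma, adjusted p = 0.0440) and array weights on the animals (0.65; limma, adjusted p = 0.0253). Under the last setting 13.4% of all genes passed, against 0.218% and 0.192% under the scalings. For Grb10 that difference was -0.76 (SE 0.282; limma, adjusted p = 0.241), with -0.67 in PT-S1 and 0.099 in CCD. Between times, the Insr difference was -0.94 (SE 0.354; limma, adjusted p = 0.998) in PT-S1 and 0.71 (SE 0.441; limma, adjusted p = 0.968) in CCD. Without the libraries of low correlation, Igfbp4 passed for 72 h minus 24 h in PT-S1. Its changes in that setting were -0.52 at 24 h and 0.37 at 72 h, and 1.63% of all genes passed.

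The rest of the pathway was read from a list of 73 ligands, other receptors, binding proteins, shedding enzymes, adaptors, kinases and feedback inhibitors, of which 72 were in the 72 h tables. In PT-S1 at 24 h, 16 of 49 tested had an unadjusted limma p under 0.05, all lower in UNx, and at 72 h 12 of 48, also all lower, with 0 past the adjusted threshold at either time. Of all genes 17.8% and 20.5% had such a p, most of them lower too. The medians of the list were -0.46 and -0.39, against -0.19 and -0.29 over all genes. In CCD the counts were 12 of 54 at 24 h, 2 higher and 10 lower, and 2 of 54 at 72 h, both lower, again with 0 past the adjusted threshold, and the medians were -0.085 and -0.017. By the smallest p, the genes of PT-S1 at 24 h were the feedback inhibitor Spry1, from 6.28 ± 2.12 to 1.63 ± 1.12 TPM (SD, n = 3 and 4; change -1.44, relative -1.25; limma, adjusted p = 0.243), and Sos2, an exchange factor that activates RAS, from 12.1 to 5.41 TPM (-0.85, relative -0.65; limma, adjusted p = 0.243). The corresponding genes of PT-S1 at 72 h were Pdpk1, the kinase that activates AKT, from 18.4 to 12.1 TPM (-0.65, relative -0.36; limma, adjusted p = 0.237), and Pik3ca, a catalytic PI3 kinase subunit, from 21.2 to 14.6 TPM (-0.75, relative -0.46; limma, adjusted p = 0.237).

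In CCD at 24 h Pdpk1 again had the smallest p of the list, from 49.5 ± 3.26 to 35 ± 5.83 TPM (SD, n = 4 and 3; change -0.50; limma, adjusted p = 0.0873), followed by the EGFR ligand gene Tgfa, from 14.2 to 10.8 TPM (-0.37; limma, adjusted p = 0.157). In CCD at 72 h they were Errfi1, a feedback inhibitor of EGFR, from 34.4 to 23.2 TPM (-0.57; limma, adjusted p = 0.588), and Foxo3, a FOXO factor, from 8.48 to 4.88 TPM (-0.66; limma, adjusted p = 0.607). By role, the PI3K and AKT arm had the lowest median of the roles in PT-S1 at 72 h, -0.61 over 11 genes. Of these, 5 were at an unadjusted limma p under 0.05 (20.5% of all genes, with a median of -0.29). Leaving out the libraries of low correlation moved that median of all genes to -0.021, and the role's median was not recomputed in that setting. In CCD at 24 h the PI3K and AKT arm had a median of -0.066 over 12 genes. The genes that follow were picked out after their values were seen. Insrr, the insulin receptor-related gene, was at 217 ± 37.1 TPM in sham animals of CCD at 24 h (SD, n = 4), above Insr at 44.2 TPM, and at 0.0033 TPM in those of PT-S1. Egf went from 3.92 to 695 TPM over the sham animals of CCD at 24 h, and from 0.95 to 4.68 TPM over the UNx animals, in the table where the thick ascending limb markers also ranged most.

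**Figure D4:**
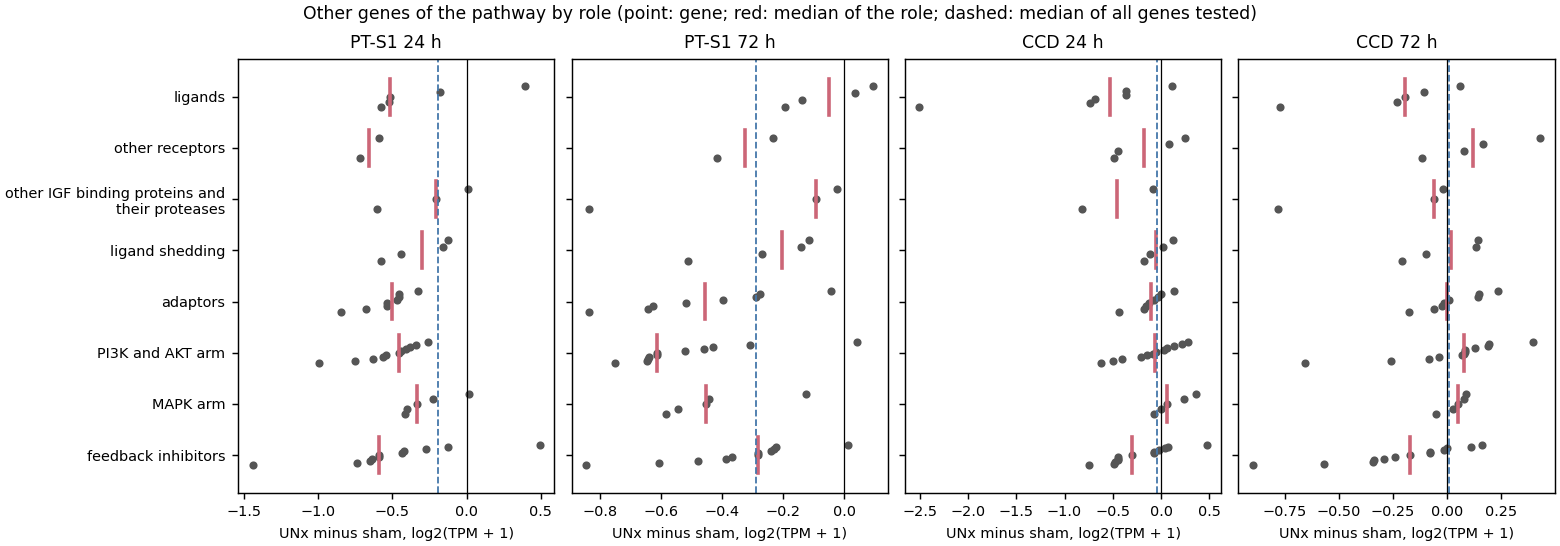
UNx minus sham on the log2(TPM + 1) scale for the other genes of the pathway, by role and table (points), with the role's median in red and the median of all genes tested dashed. In PT-S1 most points lie left of 0, as the median of all genes does, and in CCD at 72 h they lie on both sides.

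The genes whose pattern over the 32 animals was most like each member were found by Pearson r of log2(TPM + 1) among 9490 genes. The points share segments and tables, so a difference between segments alone gives a high r, and these values are descriptions. Irs1 was most like Casr (0.994), the calcium-sensing receptor, and Igfbp4 was most like Fmo1 (0.997) and Alpl (0.997). Grb10 was most like C2cd5 (0.985), Igfbp7 like Gpat3 (0.918), Egfr like Manba (0.908), Erbb3 like Mtmr10 (0.907) and Igf1r like Chd3 (0.870). Igfbp5 had the lowest best match, Itga6 at 0.761. Insr was most like Fmn1 (0.950) and Rbm47 (0.943). In CCD at 24 h both were lower in UNx without overlap, which is part of what r measures, Fmn1 with 19.7 to 22.2 TPM in sham and 13 to 15.6 TPM in UNx (-0.48; limma, adjusted p = 0.0689) and Rbm47 with 80.7 to 94.7 TPM in sham and 60.1 to 72.5 TPM in UNx (-0.43; limma, adjusted p = 0.0659).

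Irs2 was most like Nr4a1 (0.972) and Csrnp1 (0.970), both known as immediate-early genes, which are induced within minutes of a stimulus. In CCD at 72 h Nr4a1 was 71.5, 1164, 1082 and 271 TPM in sham animals 1 to 4 and 84.8, 149, 34.9 and 66.7 TPM in UNx animals 1 to 4. Sham animals 2 and 3 were the highest in Nr4a1 as in Irs2, and UNx animal 2 was the highest of the UNx animals in both. This shared order is part of what r measures, and each of these animals gave 1 library. The Nr4a1 change was -2.35 (SE 0.844; limma, adjusted p = 0.501). Its part in the Irs2 values was not tested.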

How the data were processed

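RNA sequencing of dissected tubules was deposited by the authors as 4 tables of TPM per gene and library, 1 for each segment and time. Per the labels' protocols, a Zymo kit was used for RNA and the SMART-Seq V4 kit for cDNA of polyA RNA, and per the series' design text it was sequenced on an Illumina instrument. The submitters' processing notes name STAR, RSEM 1.3.3 and the build GRCm39. The annotation release is not given in the sources used here. TPM keeps no depth, so the depth of each library is unknown and no counting interval was computed.

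All 69 columns were used. The name of 47 matched 1 sample. In the other 22 the library number differed from the title, and these were matched to group and animal only. No pair of columns was identical (0 pairs). Whether the animals of PT-S1 and CCD are the same is not stated.

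Genes averaging 1 TPM or more in a table were tested on log2(TPM + 1), averaged over the libraries of an animal, with limma 3.58.1 in R 4.3.3 (trend and empirical Bayes, two-sided). P-values were adjusted by Benjamini-Hochberg over all genes tested, 11874 and 11886 in PT-S1 and 13775 and 13770 in CCD at 24 h and 72 h, with a threshold of 0.05. The script was tested on simulated data. The members and lists were chosen with earlier results of these data known. Named were all members, the 2 genes of the pathway list with the smallest p in each table, and the 2 genes most like each member among those with at least 10 TPM in a group, of which the second is printed for some members. Insrr and Egf were named after their values were seen. Alternatives were other pseudocounts, filters, scalings, replicate units, array weights, a replicate block, and leaving out animals or the libraries with a median correlation under 0.92. Promoter windows come from RefSeq for GRCm38.p6, while the tables are on GRCm39, so no table position was joined to them. The animals' numbers are labels, and nothing says that a number is shared between sham and UNx.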

Additional observations from a re-analysis of the deposited data

Results flagged for a closer look

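Of 60 groups of 4 or 5 animals tested, 2 held an animal far from the others of its group by Dixon's criterion, which chance gives in about 1 in 20 groups. In PT-S1 at 72 h, UNx animal 3 had 15.9 TPM of Insr, and the other UNx animals had 7.16 to 9.47 TPM. UNx animals 1 and 2 each held a library of low correlation there. Those libraries had 1.51 and 3.75 TPM, beside 12.8 and 11.8 TPM in the other library of the animal. The criterion was not applied without them. In CCD at 72 h, UNx animal 2 had 32.8 TPM of Irs2, and the other UNx animals had 17.8 to 19.5 TPM. That animal gave 1 library, so the value has no repeat.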

How the results depend on the processing

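Of 841 alternative values over 43 changes or differences of single genes, 767 kept direction and side of the threshold. Of the rest, 62 changed direction, 8 lost the threshold and 4 gained it. Differences were followed for Insr and Grb10 only. All 8 losses were of Insr in CCD at 24 h, the only call of the main fit, out of its 17 alternatives. The 4 gains were of Insr too. All other results were uncalled in the main fit, so keeping their side meant staying uncalled. Insr in CCD at 24 h stayed below 0 throughout. Pathway genes past the adjusted threshold there were 1, and 0 with no filter on low genes and 0 with the replicate block (Insr -0.81; limma, adjusted p = 0.10), which also drops sham animal 4, whose number UNx lacks. Dropping that animal alone gave Insr the same change and already lost the call (limma, adjusted p = 0.0691). Leaving out each animal gave 0 to 1. Array weights on the animals gave 1 of 9 in PT-S1 at 72 h (Insr), where 11.3% of all genes passed. For PT-S1 minus CCD at 24 h, quantile normalization, median-ratio scaling and array weights gave 1 each (Insr), with 0.218%, 0.192% and 13.4% of all genes. For 72 h minus 24 h in PT-S1, leaving out the libraries of low correlation gave 1 (Igfbp4), where 1.63% of all genes passed, from 0% with all libraries. CCD at 24 h held no such library, so that setting gave no value there.

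Whether the same animal number pairs the groups could not be decided, because each table held few pairs. Correlations of deviations between animals of the same number ran from -0.366 to 0.328, and in no table were all pairs over 0.1. In the 24 h tables the fit with the replicate block drops the animal without a partner (UNx animal 4 in PT-S1, sham animal 4 in CCD). For CCD at 24 h it gave Irs1 0.086 and Irs2 0.023, the same as dropping that animal alone. Over all genes 101 passed in PT-S1 at 24 h (8 with the animal dropped and no block, 0 with all animals), 10 in CCD at 24 h (26 and 136) and 3 in CCD at 72 h (82 without the block, no animal dropped).

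These changes, none past the threshold, turned direction, and the cause was not tested. In PT-S1 at 24 h, Igfbp7 was 0.23 with median-ratio scaling, 0.054 with every library as a replicate and 0.057 with a random effect for the animal. Insr there was -0.065 without libraries of low correlation and -0.061 with array weights. In PT-S1 at 72 h, quantile normalization gave Grb10 0.063 and Igfbp5 0.035. Median-ratio scaling gave Grb10 0.050, Igfbp4 0.086, Igfbp5 0.10 and Igfbp7 0.39, and log2 of the mean TPM gave Igfbp4 0.017 and Igfbp7 0.0059. Without libraries of low correlation the PT-S1 values at 72 h were Grb10 0.12, Igfbp4 0.37, Igfbp5 0.17, Igfbp7 0.14, Egfr 0.17 and Erbb3 0.26, and with array weights Grb10 0.17, Igfbp4 0.27, Igfbp5 0.23, Igfbp7 0.11, Egfr 0.21 and Erbb3 0.14. In CCD at 24 h, quantile normalization gave Irs1 0.051. In CCD at 72 h, log2 of the mean gave Erbb3 -0.019, and every library as a replicate gave Igf1r -0.014 and Grb10 -0.016. Leaving out the library of low correlation gave Irs1 -0.11, Grb10 -0.021, Egfr -0.11 and Erbb3 -0.21, and array weights gave Igf1r -0.018, Irs1 -0.15, Grb10 -0.16 and Erbb3 -0.16.

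Leaving out each animal gave these ranges: in PT-S1 at 24 h Insr -0.019 to 0.19 and Igfbp7 -0.13 to 0.16; at 72 h Igfbp7 -0.19 to 0.11; in CCD at 24 h Irs1 -0.26 to 0.086 and Irs2 -0.49 to 0.052. In CCD at 72 h they were Insr -0.32 to 0.17, Igf1r -0.0043 to 0.29, Irs1 -0.11 to 0.38, Grb10 -0.069 to 0.29, Egfr -0.048 to 0.16 and Erbb3 -0.11 to 0.28.

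The groups held 3 to 5 animals, and TPM gives no depth, so no detection limit is given.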
